A study of Caenorhabditis elegans with 2 samples.

Results

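Divergent promoters are the short gaps between neighbouring genes that are read away from each other, one on each strand. The regions described here lie in such gaps of the Caenorhabditis elegans autosomes. They come from a list of peaks and background from ChIP-seq of the homeodomain protein UNC-39. ChIP-seq is a method that sequences the DNA recovered together with a given protein. A region was kept where its summit lay outside every protein-coding gene, upstream of a minus strand gene on its left and a plus strand gene on its right, within 1000 bases of the 5′ end of both and within 500 bases of at least one. This gave 411 regions out of 24193 on the autosomes and 30000 in the pooled list as a whole. They lay in the gaps of 385 gene pairs, beside 770 genes.

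The material was strain OP186 at the L4 larval stage, taken as whole animals of both sexes. All animals carried unc-119(ed3) on chromosome III and the transgene wgIs186, an added copy of unc-39 whose protein ends in GFP and FLAG. The samples used here are 2 biological replicates of this single group, with no second genotype, stage or untagged strain beside them, so no test between conditions could be made. A relaxed list of 30000 regions was deposited for the pooled data and for either replicate. By its name it holds background as well as peaks, so a region in it need not be bound. A list of 63 optimal peaks was chosen by the authors with the irreproducible discovery rate. The signal value is the authors' own and its scale is not stated. It serves here only to rank regions within a list. The whole body was sampled, so signal in a few cells and weak signal in many cells cannot be told apart.

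UNC-39 is related to vertebrate SIX4 and SIX5. Proteins of that family bind DNA through a homeodomain and a conserved domain beside it, and UNC-39 itself is known for roles in mesoderm and neurons. In a divergent gap a single stretch of open chromatin can serve the promoters of both genes. Many worm transcripts are trimmed at the 5′ end and joined to a spliced leader, so an annotated 5′ end is often not the place where transcription starts. Bound DNA in such a gap cannot be assigned to either gene from its place.

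The sequences around the summits of 7 strong members, on chromosomes II, III and IV, are given to show where the words searched below lie. Those listed up to rpl-15/K11H12.8 are the strongest members. Those after it are not the next strongest, as larp-1/wip-1 was stronger and is not shown. The 7 include members at ribosomal protein and mitochondrial chaperonin genes. Each is 200 bases of ce11 about the summit. Capitals mark the short words searched, on either strand: GAGAGA, then CGTCTC and ACACAC, then GGGCGG and TGAYAC, the word known from SIX4 and its relatives, in which Y is T or C. At K01G5.10/tasp-1 a match of ACACAC and one of TGAYAC overlap by a base. In both chaperone pairs capitals also mark GAANNTTC, the inverted repeat at the core of heat shock elements. This word is not confined to them, as R107.5/cls-2 also holds it, as gaaggttc in lower case.
R107.5/cls-2, chrIII:9053968-9054167, plus strand: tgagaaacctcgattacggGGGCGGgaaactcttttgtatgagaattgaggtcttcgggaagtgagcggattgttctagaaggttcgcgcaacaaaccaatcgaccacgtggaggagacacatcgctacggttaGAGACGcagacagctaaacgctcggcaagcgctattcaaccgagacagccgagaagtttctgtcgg
F44E5.4/F44E5.5, chrII:11759355-11759554, plus strand: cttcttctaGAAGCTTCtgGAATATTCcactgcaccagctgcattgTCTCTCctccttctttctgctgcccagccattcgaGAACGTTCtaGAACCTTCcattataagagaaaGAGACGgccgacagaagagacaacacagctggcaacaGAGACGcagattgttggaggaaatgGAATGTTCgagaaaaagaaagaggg
K01G5.10/tasp-1, chrIII:10759148-10759347, plus strand: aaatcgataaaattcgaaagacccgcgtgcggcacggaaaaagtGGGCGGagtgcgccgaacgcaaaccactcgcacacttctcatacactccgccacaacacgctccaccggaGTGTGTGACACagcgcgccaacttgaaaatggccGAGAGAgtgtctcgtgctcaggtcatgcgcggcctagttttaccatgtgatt
rpl-15/K11H12.8, chrIV:654791-654990, plus strand: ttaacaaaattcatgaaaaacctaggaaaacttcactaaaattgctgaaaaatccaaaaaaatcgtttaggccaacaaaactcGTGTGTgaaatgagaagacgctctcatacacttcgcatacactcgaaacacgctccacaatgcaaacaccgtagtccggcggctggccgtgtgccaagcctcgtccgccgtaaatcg
Y22D7AL.10/hsp-60, chrIII:1619031-1619230, plus strand: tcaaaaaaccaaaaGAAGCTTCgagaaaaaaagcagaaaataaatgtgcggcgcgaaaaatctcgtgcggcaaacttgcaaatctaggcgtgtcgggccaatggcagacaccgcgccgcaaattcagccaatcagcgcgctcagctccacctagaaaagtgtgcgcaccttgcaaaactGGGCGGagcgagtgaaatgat
rpl-20/Y17G9B.5, chrIV:4749965-4750164, plus strand: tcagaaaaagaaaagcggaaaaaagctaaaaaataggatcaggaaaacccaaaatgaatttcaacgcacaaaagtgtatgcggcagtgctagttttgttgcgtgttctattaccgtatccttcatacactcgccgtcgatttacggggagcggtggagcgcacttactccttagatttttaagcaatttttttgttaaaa
rpl-21/C14B9.10, chrIII:8130382-8130581, plus strand: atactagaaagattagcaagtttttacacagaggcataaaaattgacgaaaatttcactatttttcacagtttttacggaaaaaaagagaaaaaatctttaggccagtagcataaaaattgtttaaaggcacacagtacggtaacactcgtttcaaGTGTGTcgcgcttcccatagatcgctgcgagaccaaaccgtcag

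The divergent regions were few, and a larger share of them than of other regions stood among the strongest. They made up 1.7% of the autosomal regions (95% interval 1.54 to 1.87), and the positions that meet the rule made up 1.25% of autosomal bases. Their density was 398 per Mb, against 319 per Mb in promoters with a single gene start, 267 per Mb in other intergenic DNA and 296 per Mb in gene bodies. Among the 500 strongest autosomal regions were 31 members, or 7.54% of all members (5.18 to 10.5), where the share of all autosomal regions in that set was 2.07%. The same share was 2.6% for single-gene promoter regions, 2.04% for other intergenic regions and 1.81% for regions in gene bodies. These intervals are exact Clopper-Pearson bounds and cover counting over regions only. They treat regions as independent and hold no spread between the 2 samples.

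Most members were weak. Their median signal value was 8.18, against 7.59 for the other autosomal regions, and a typical member stood at the percentile 59.6 of all autosomal regions, with 100 as the strongest. Signal values of members ran from 5.6 to 44.7. The deposited −log10 q had a median of 0.0408 in members and 0.0349 over all autosomal regions, near 0 in both. Optimal peaks accounted for 5 members, or 1.22% (0.396 to 2.82), beside 0.174% of all autosomal regions. A sixth member overlapped an optimal peak whose own summit lay elsewhere.

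The excess at the top of the list was seen in both replicates. In the pooled list members were 10% of the 100 strongest autosomal regions, 6.2% of the 500 strongest (4.25 to 8.69), 3.45% of the 2000 strongest and 2.08% of the 10000 strongest. In replicate 1 the shares at the same depths of the list were 7.0%, 4.6%, 3.1% and 2.09%, and over its whole autosomal list 1.62%. In replicate 2 they were 5.0%, 4.8%, 3.2% and 1.95%, and over the whole list 1.65%. The share fell toward the share of bases as weaker regions were added in all 3 lists. Single-gene promoters held 14.8% of the 500 strongest pooled regions (11.8 to 18.2) and 11.7% of all of them.

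**Figure D1:**
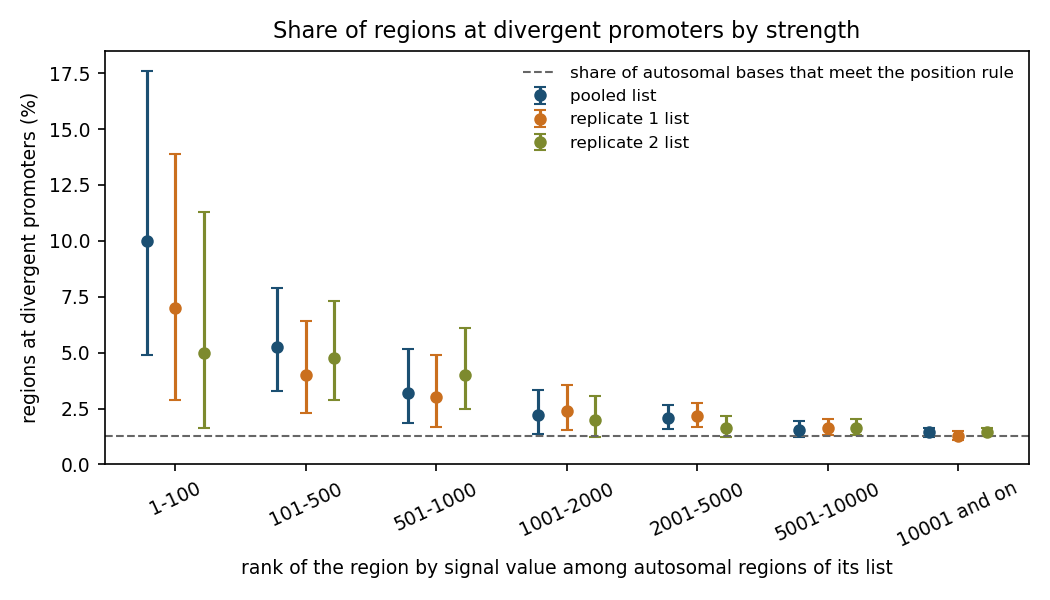
The horizontal axis gives bins of autosomal regions by rank of signal value, and the vertical axis the percent of regions in each bin that lay at divergent promoters, for the pooled list and each replicate list. Points are shares with exact 95% intervals over regions. The pooled share was 10% in the first bin and 1.43% in the last, and the dashed line marks the 1.25% of autosomal bases that meet the position rule.

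Few gaps with a strong member were the same in both replicates. Replicate 1 had 23 gene pairs with a region among its 500 strongest and replicate 2 had 24, and 5 pairs were in both sets, 21.7% of the first and 20.8% of the second. By overlap of regions, 5 of the 23 divergent regions in replicate 1's set met one of the 500 strongest of replicate 2, or 21.7% (7.46 to 43.7), against 11.2% (8.57 to 14.3) of all 500. Over all gene pairs with a region, 118 were in both lists, 32.4% of those in replicate 1 and 31.6% of those in replicate 2. Of the 411 members, 303 overlapped a region of replicate 1 and 241 a region of replicate 2. Over all 24193 autosomal regions these counts were 16471 and 12990. Both replicates had a region at 164 members, or 39.9% (35.1 to 44.8), where the share over all autosomal regions was 30.7%. Neither had one at 31 members, or 7.54% (5.18 to 10.5), and at 8.89% of all autosomal regions. Over the 164 members the rank correlation of the signal values of the replicates was 0.17, and over 7419 autosomal regions found in both it was 0.07. Points of one such correlation share their libraries, so it is given as a description.

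**Figure D2:**
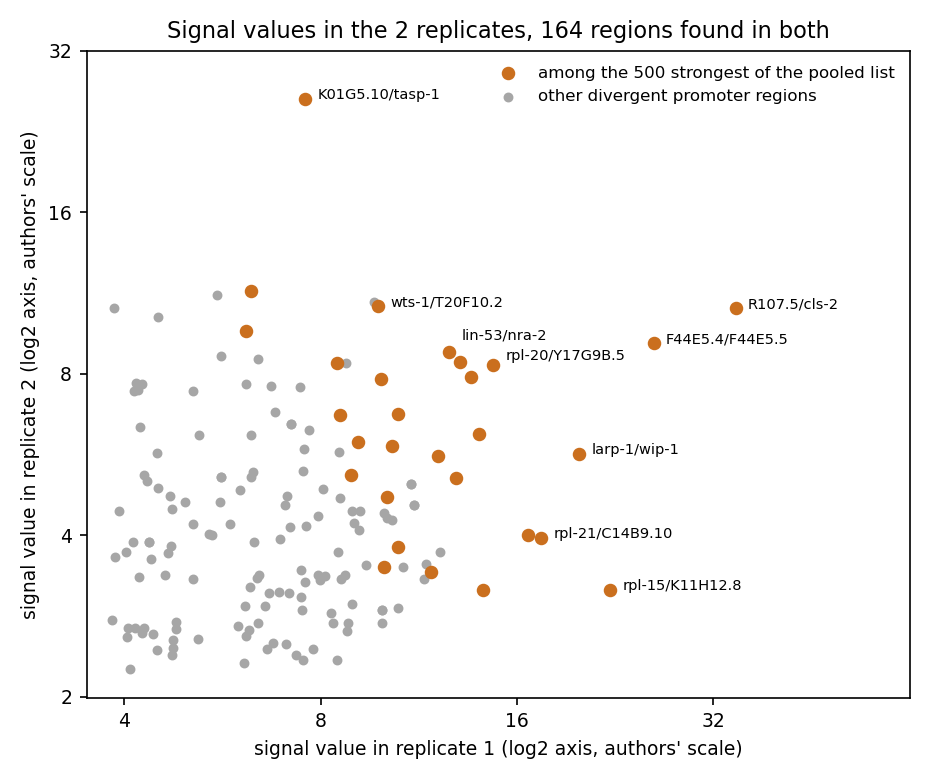
Each point is one of the 164 divergent promoter regions with a region in both replicates, with its signal value in replicate 1 across and in replicate 2 upward, both on log2 axes in the authors' units. Orange points are members among the 500 strongest autosomal regions of the pooled list. R107.5/cls-2 is farthest right at 34.6, and K01G5.10/tasp-1 is highest at 26.

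The 31 strongest members all had a region in replicate 1, and 29 had one in replicate 2. The 29, or 93.5% (78.6 to 99.2), are near the 88.4% (85.3 to 91.1) of all 500 strongest autosomal regions that had a region in both. Those missing in replicate 2 were C14A4.8/C14A4.9 and snr-3/rsp-5, a pair made of an Sm protein gene and an SR splicing factor gene. The rank was better in replicate 1 for 24 of the 31 and better in replicate 2 for 7. A member with a region in a single replicate counted as better in that replicate. Over all members the rank was better in replicate 1 for 237 and in replicate 2 for 143. These counts include 139 members with a region in replicate 1 only and 77 with a region in replicate 2 only. Ranks were not compared in this way over all autosomal regions. Of those, too, more overlapped a region of replicate 1, at 16471, than of replicate 2, at 12990.

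The strongest member was the optimal peak between R107.5 and cls-2 on chromosome III, from 9053868 to 9054267. The gene cls-2 encodes a CLASP protein, which acts on microtubules in the spindle. The pooled signal value was 44.7, the highest of any autosomal region. In replicate 1 it was 34.6, rank 1 of the list, and in replicate 2 it was 10.6, rank 138. The summit was 278 bases from the 5′ end of R107.5 and 980 bases from that of cls-2.

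The next member lay between the Hsp70 family genes F44E5.4 and F44E5.5 on chromosome II. Its pooled signal value was 35.1, with 25.9 at rank 6 in replicate 1 and 9.12 at rank 313 in replicate 2. The summit was 144 bases from F44E5.4 and 207 bases from F44E5.5, near the middle of a gap of 350 bases. Within 100 bases of the summit the sequence held GAANNTTC at 5 places, starting 91, 81, 19 and 9 bases before the summit and 75 bases after it. Hsp70 genes are similar to each other in sequence. In the window around the summit of each of the 31 strongest members, this one included, at least 93.5% of the 32-base words occurred once in the genome.

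The optimal peak at K01G5.10/tasp-1 on chromosome III showed the opposite order of replicates. The gene tasp-1 is named for taspase, a protease. The pooled signal value was 30.8, with 7.57 at rank 5005 in replicate 1 and 26 at rank 1 in replicate 2. Its summit was 59 bases from the 5′ end of tasp-1 and 726 bases from that of K01G5.10. It was thus the strongest region of one replicate and an ordinary one in the other.

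The remaining optimal peaks were carried mainly by replicate 1. At rpl-15/K11H12.8 on chromosome IV, where rpl-15 encodes a protein of the large ribosomal subunit, the pooled signal value was 26.3, with 22.2 at rank 18 in replicate 1 and 3.16 at rank 17781 in replicate 2. At larp-1/wip-1 on chromosome III, a La-related RNA-binding protein gene beside the gene of a WASP-interacting protein, the pooled value was 26.2. Replicate 1 gave 19.9 there, at rank 31, and replicate 2 gave 5.66, at rank 3385. Only R107.5/cls-2 and F44E5.4/F44E5.5 of the 5 optimal peaks at divergent promoters ranked within the first 500 of both lists.

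High ranks in both replicates were found at 6 members, which were among the 1000 strongest of each replicate list. They were 1.46% of members, and 0.293% of all autosomal regions met that limit. Besides the strongest pair and the Hsp70 pair they were lin-53/nra-2 and rsr-1/sri-5 on chromosome I, Y22D7AL.10/hsp-60 on chromosome III and rpl-20/Y17G9B.5 on chromosome IV. The gene lin-53 encodes the RbAp48 histone-binding protein, nra-2 a nicalin relative that acts on receptor assembly, rsr-1 an SR-related splicing protein and sri-5 a chemoreceptor. The gene hsp-60 encodes the mitochondrial chaperonin, and its neighbour Y22D7AL.10 the small co-chaperonin that works with it.

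The other 4 had close values. Y22D7AL.10/hsp-60 had a signal value of 13.1 at rank 272 in replicate 1 and 8.42 at rank 505 in replicate 2. For rpl-20/Y17G9B.5 they were 14.7 at rank 141 and 8.31 at rank 544, for rsr-1/sri-5 13.6 at rank 221 and 7.89 at rank 721, and for lin-53/nra-2 12.6 at rank 341 and 8.77 at rank 390. Their pooled values were 22.7, 21.6, 22.1 and 18.8 in the same order, and none of them is an optimal peak. All 4 stood lower in the pooled list than K01G5.10/tasp-1, which was strong in a single replicate.

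Other strong members followed one replicate or the other. The member at drr-2/set-16, an eIF4H-like gene and a histone H3K4 methyltransferase gene of the MLL type, had a pooled value of 22.2, with rank 177 in replicate 1 and 2357 in replicate 2. At wts-1/T20F10.2, where wts-1 encodes the Warts kinase, the pooled value was 21, with ranks 1511 and 129. The members at srj-49/ugt-53, a chemoreceptor gene and a glucuronosyltransferase gene, at C37C3.9/C37C3.18, at rpl-21/C14B9.10 and at npp-14/cel-1, a nucleoporin gene and the mRNA capping enzyme gene, had pooled values between 19.5 and 20.2. Among the 50 strongest members the largest gaps in rank in favour of replicate 1 were at rpl-15/K11H12.8, at C17H12.2/vha-8, a vacuolar ATPase subunit gene, and at F09E5.11/bmy-1. In favour of replicate 2 they were at T10E9.8/T10E9.2, at aka-1/ubc-6 and at iff-2/F54C9.14, where iff-2 is a gene of the translation factor eIF5A. At aka-1/ubc-6, 30% of the 32-base words were unique in the genome.

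Lists of genes with known roles were set against all gaps in which the rule can be met, of which 385 of 2061, or 18.7% (17 to 20.4), held a member. Shares are over gaps with any gene of the list beside them. The share also varied with gap length, from 6.91% in gaps of up to 250 bases to 28.5% in those of 751 to 1000. The median gap was 272 bases for histone genes, 326 for respiratory chain genes, 468 for pairs with a shared name stem and 886 for chemoreceptor genes. Over all gaps it was 587. Lists were not matched for gap length, so its part in their shares was not tested.

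Ribosomal protein genes had the highest share of the lists with 10 or more gaps. A member lay in 19 of their 45 gaps, or 42.2% (27.7 to 57.8), and one of the 500 strongest autosomal regions in 6 gaps, or 13.3%, where the share over all gaps was 1.5%. The 20 members there had a median signal value of 10.1, against 8.05 for the 391 other members. The 6 strong members were those at rpl-15, rpl-20, rpl-21, rps-19, rps-26 and rps-12, with pooled values of 26.3, 21.6, 19.5, 18, 16.7 and 15.7. All 6 had a region in both replicates. Replicate 1 placed rpl-21 at rank 53 and rps-19 at rank 74, where replicate 2 placed them at 10969 and 10607. The member at rps-1 had the opposite pattern, with no region in replicate 1 and rank 502 in replicate 2.

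Without the ribosomal protein genes, 25 of 391 members, or 6.39% (4.18 to 9.29), were still among the 500 strongest. At single-gene promoters the ribosomal protein genes had 2 of 14 regions in that set, or 14.3% (1.78 to 42.8), and a median signal value of 7.43. The wide interval leaves no order between divergent and single-gene promoters of these genes. Of the words searched, GAGAGA was at 1 of the 20 ribosomal protein members and TGAYAC at 1.

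Chaperone genes had a member in 7 of 19 gaps, or 36.8% (16.3 to 61.6), led by the Hsp70 pair and hsp-60. Members at hsp-110/rpn-3 and dnj-29/ndua-2 had 11.6 and 10.9. A list of mitochondrial respiratory chain genes, matched by name and not complete, had a member in 8 of 20 gaps, or 40.0% (19.1 to 63.9). Among them were ddx-15/ucr-1, beside a complex III gene, at 16.3 and mcrs-1/atp-1, beside an ATP synthase subunit gene, at 15.7. Both of these were among the 500 strongest. The list left out genes named ndua- and ndub-. Members beside ndua-8, ndua-2 and ndub-8, at 14.6, 10.9 and 10.1, are thus not in its count. The interval of the chaperones includes the 18.7% of all gaps. That of the respiratory chain list starts just above it, and the share of a complete list was not taken.

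Other lists were near or below the share of all gaps. Proteasome genes had a member in 3 of 21 gaps, tRNA synthetases in 3 of 13, nuclear hormone receptors in 6 of 26, F-box genes in 13 of 71, C-type lectins in 7 of 54 and cuticle collagens in 3 of 24. Chemoreceptor genes had one in 34 of 168, or 20.2%, including the strong members at rsr-1/sri-5, srj-49/ugt-53 and B0495.9/sre-1. Histone genes, which in worms lie in clusters of divergent pairs, had one in 2 of 31 gaps, or 6.45% (0.791 to 21.4). Pairs whose genes share a name stem, which are mostly gene family copies, had one in 16 of 147 gaps, or 10.9% (6.35 to 17.1), and none among the 500 strongest.

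Few divergent gaps lay beside genes of the tissues in which UNC-39 is known to act. Muscle and mesoderm genes had 3 such gaps and neuronal genes 2, none with a member. Homeobox genes had a member in 1 of 7 gaps, at ceh-100/lips-15 with 9.87. Neuropeptide genes had one in 2 of 8 gaps, with nlp-34/nlp-31 at 10.2 and ins-14/F41G3.5 at 9.69. Major sperm protein genes had none in 12 gaps, which allows a share of up to 26.5%.

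**Figure D3:**
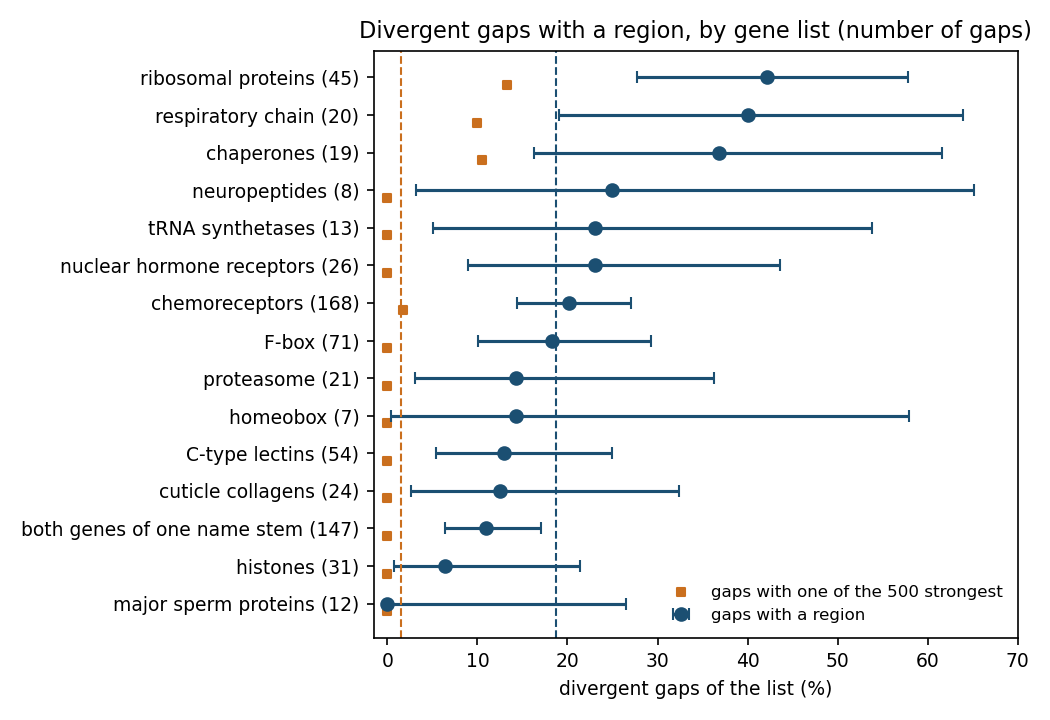
Each line is a gene list with at least 7 divergent gaps, their number in brackets, and the axis gives the percent of those gaps. Blue points with exact 95% intervals are gaps with a member, orange squares gaps with one of the 500 strongest autosomal regions, and the dashed lines mark 18.7% and 1.5% over all gaps. Ribosomal protein genes are at the top with 42.2% and 13.3%.

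Summits kept no fixed place in the gap. The median distance of a summit from the middle was 40.3% of the way to a start, where the bases that meet the rule had a median of 47.1%. The nearer start was a median of 187 bases away, against 172 over those bases, and lay within 100 bases for 124 members, or 30.2% (25.8 to 34.9), beside 31.2% of the bases. The nearer gene was the minus strand gene for 198 of the 411. Among the 31 strongest members the nearer start was within 100 bases for 13, or 41.9% (24.5 to 60.9), an interval that includes the share of bases.

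**Figure D4:**
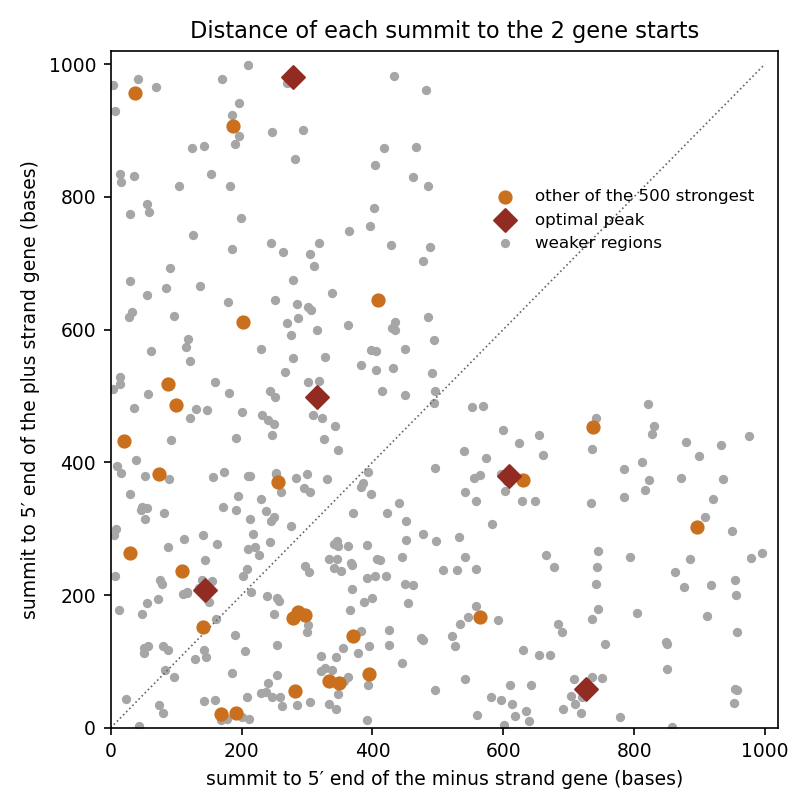
Each point is one of the 411 members, placed by the distance in bases of its summit from the 5′ end of the minus strand gene, across, and of the plus strand gene, upward. Diamonds are the 5 optimal peaks, orange points the other members among the 500 strongest autosomal regions and grey points the weaker members. The empty upper right square is left out by the rule, and members lie on both sides of the dotted line of equal distance, with 198 nearer to the minus strand gene.

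A member lay in 6.91% of gaps of up to 250 bases, in 16.2% of those of 251 to 500, in 24.6% of those of 501 to 750, in 28.5% of those of 751 to 1000 and in 18% of those of 1001 to 1500. Per Mb of eligible bases the density was 451 in gaps of 251 to 500 bases and 360 in gaps of 751 to 1000. The highest share of strong members was in gaps of 251 to 500 bases. There 13 of 84 members, or 15.5% (8.51 to 25), were among the 500 strongest. In the shortest gaps the share was 2 of 25, or 8.0% (0.984 to 26). It was 5 of 118, or 4.24% (1.39 to 9.61), in gaps of 501 to 750 bases. Gaps of 751 to 1000 had 5 of 101, or 4.95% (1.63 to 11.2), and the longest 6 of 83, or 7.23% (2.7 to 15.1). Each of these intervals overlaps that of gaps of 251 to 500 bases. Overlap alone does not decide whether shares differ, and the gap lengths were not compared by a test. Just outside the rule, 64 regions had both starts over 500 bases away. Of these, 7.81% (2.59 to 17.3) were among the 500 strongest and the highest signal value was 40.4, where members had a share of 7.54% and a highest value of 44.7.

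Members were spread over the 5 autosomes, with 481 per Mb of eligible bases on chromosome III and 369 per Mb on each of IV and V. Strong members were less even. Chromosome I had 8 of its 76 members among the 500 strongest, and II and III had 9 of 75 each. IV had 3 of its 71 members and V had 2 of its 114. The other strong regions were not counted by chromosome, so it was not tested whether this is particular to members. Several members could share a gap, as 24 gaps held 2 and the gap between phf-10 and nhr-15 held 3. In such gaps 24 of 26 neighbouring pairs of members overlapped, which touched 47 of 51 members there, so these are not independent of each other.

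TGAYAC, the word of the SIX4 relatives, was not more frequent at members. It lay within 100 bases of the summit at 46 members, or 11.2% (8.31 to 14.6), and at 14.1% of the other autosomal regions (13.7 to 14.6). It was at 4 of the 31 strongest members, K01G5.10/tasp-1, srj-49/ugt-53, C14A4.8/C14A4.9 and ska-3/rps-12. In windows of the same 201 bases at the middle of the gaps it was at 11.7% of gaps with a member and 10% of gaps without one. A missing match says only that these letters were not in the window.

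GAGAGA was at 78 members, or 19% (15.3 to 23.1), and at 13.1% of the other autosomal regions (12.7 to 13.5). Single-gene promoter regions had it at 16.8% (15.4 to 18.2), an interval that overlaps that of members. At the strong end it was at 8 of 31 members, or 25.8% (11.9 to 44.6), and at 29.0% of the 469 other autosomal regions among the 500 strongest (24.9 to 33.3). CGTCTC was at 16.1% of the 31 and 18.8% of the 469, and ACACAC at 22.6% and 18.8%.

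GGGCGG, a G-rich word of the kind bound by Sp1-like factors, was at 35 members, or 8.52% (6.0 to 11.6), and at 3.92% of the other autosomal regions (3.68 to 4.17). Single-gene promoter regions had it at 5.1% (4.32 to 5.98). Among the strongest it was at 8 of 31 members, or 25.8% (11.9 to 44.6), and at 7.04% of the 469 others (4.89 to 9.74). The middles of gaps held it at 5.71% of gaps with a member and 5.61% of gaps without. GAANNTTC was at 8 of the 31 strongest members, or 25.8% (11.9 to 44.6), and at 10.9% of the 469 others (8.2 to 14), but over all members at 17.3% against 14.8%.

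Base composition differed little. Members had 35.7 ± 6.72% G+C within 100 bases of the summit and the other autosomal regions 36.4 ± 6.87% (SD over 411 and 23782 regions). Single-gene promoter regions had 35.1% and other intergenic regions 35.2%, both below members, while regions in gene bodies had 37.1%. The 31 strongest members had 42.7 ± 6.11% and the 469 other strong regions 40.5 ± 7.49%. Strong regions were thus richer in G+C in and out of divergent promoters, and the part of this in the word counts was not tested.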

How the data were processed

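Regions came from the ce11 lists that the authors deposited: a pooled list and 1 list per replicate, with 30000 regions each, and the optimal list. Per the notes deposited with the samples, each list was derived from alignments and 1 further file. The signal value and the −log10 q of each region are as deposited by the authors. The sources used here do not give the aligner, the peak caller, the depth or the origin of a control, so depth per sample is unknown. Intervals cover counting over regions only and hold no spread between the 2 samples. Genes were those of Ensembl release 115 on WBcel235, the assembly of ce11, and sequences were read from the RefSeq copy of that genome.

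Gene ends stood for 5′ ends. Regions were compared by signal rank, by overlap of at least 1 base and by 14 words on both strands in windows of 201 bases, and shares have exact intervals at 95%. With 2 samples of 1 group there was no test over samples. The members, the gene lists and the words were chosen with earlier results of these data known. Pairs were named by rule: optimal peaks, the 15 strongest members, the 5 best in both replicates, the 3 largest rank gaps each way among the 50 strongest, up to 4 pairs per gene list, and gaps with most members. Others were named after their values were seen. The assignment and word search were tested on simulated data. Alternatives changed lists, distances, windows, backgrounds, overlap and the number of regions. Scripts ran in Python 3.11.15 with pandas 2.3.3 and numpy 2.4.6 for tables, scipy 1.17.1 for intervals and matplotlib 3.10.9 for figures.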

Additional observations from a re-analysis of the deposited data

How the results depend on the processing

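The divergent share of autosomal regions, 1.7%, was 0.827% with both starts within 500 bases, where 0.555% of bases qualify, and 2.58% with the far limit at 2000, where 1.91% qualify. It was 2.08% among the 10000 strongest. Members were 10% of the 100 strongest and 3.45% of the 2000 strongest. The median percentile, 59.6, was 69.7 with both starts within 500 bases and 64.2 among the 10000 strongest. The share with a region in both replicates, 39.9%, was 46.5% and 55.8% under the same pair of changes, 28.5% with an overlap of at least 200 bases and 9.49% with summits within 50 bases. The matching shares over all autosomal regions are not given for the 10000 strongest or the stricter overlaps. Members are thus not compared with other regions there. The share of gaps with a member, 18.7%, was 12% with both starts within 500 bases, 22.4% with the far limit at 2000 and 9.66% among the 10000 strongest.

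The G+C difference of members from other autosomal regions, -0.743 points, was -1.2 to -1.02 in single replicates, -0.163 with both starts within 500 bases, -0.532 with the far limit at 2000, -0.6 with overlapping regions counted once, -0.424 among the 10000 strongest and -0.887 within 50 bases. It turned to 0.605 against single-gene promoters and 0.444 against other intergenic regions. The summit offset, 40.3%, was 44.1% to 48.0% in single replicates, 32.6% with both starts within 500 bases and 58.4% with the far limit at 2000. The distance limits themselves restrict the offset in longer gaps. Its median over eligible bases, 47.1%, is given only for the main rule, so offsets under other limits have no such value beside them. Causes of the changes in G+C and offset were not tested.

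Leaving out regions at ribosomal protein genes, an alternative chosen after seeing the data, gave 5.0% for the divergent share of the 500 strongest, against 6.2%. No paired analysis was possible because there was only 1 group. Without depth, weak regions cannot be told from background.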

Other observations

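A word of 8 bases that no list had named was picked when all such words were counted. The choice asked for a word in 5 or more of the strongest members and in no other strong region. GCGAGACC, read on either strand, lay within 100 bases of the summit at 5 of the 31 strongest members, or 16.1%. It was at 0 of the 469 other autosomal regions among the 500 strongest. Both counts follow from the choice, so no interval is given for them. They were rpl-21/C14B9.10, lin-53/nra-2, B0457.2/cct-2, ndk-1/F25H2.6 and icd-1/vps-32.1. The gene cct-2 encodes a subunit of the cytosolic chaperonin, ndk-1 a nucleoside diphosphate kinase, icd-1 the beta subunit of the nascent chain complex and vps-32.1 an ESCRT-III protein. Over all members it was at 23, or 5.6% (3.58 to 8.28), against 0.704% of single-gene promoter regions (0.431 to 1.09) and 0.58% of regions in gene bodies. At the middles of the gaps it was at 4.94% of gaps with a member (3.0 to 7.6) and 2.57% of gaps without one (1.86 to 3.44). It was also at 3 of the 14 single-gene promoter regions of ribosomal protein genes. The word was picked after its counts were seen, among all words of that length, so the counts are a description. The 23 members include the 5 by which it was chosen.

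Words were also ranked by the difference between the 20 members with a ribosomal protein gene and all autosomal regions. The counts at the 20 follow from that choice, so they are a description and no interval is given for them. The A-rich words AAAAAATC and, counted apart, AAAAATTG were at 9 of the 20 each, but also at 9.98% and 12% of all autosomal regions. GGCCTAAA, from the same ranking, was at 7 of the 20, or 35%, and at 0.74% of all autosomal regions. The 7 were the members at rpl-15, rpl-21, rps-26, rpl-28, rpl-26, rpl-22 and rps-27. It was at 1 of the 14 single-gene promoter regions of ribosomal protein genes. In the printed sequences of rpl-15/K11H12.8 and rpl-21/C14B9.10 it is read on the other strand, as TTTAGGCC.

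The cytosolic chaperonin genes were another group picked after its values were seen. They had a member in 5 of their 8 divergent gaps, or 62.5%, beside 18.7% of all gaps. Because of that choice no interval is given and the share is a description. The signal values were 18.7 at cct-2, 13.5 at cct-8, 13.2 at cct-7, 8.46 at cct-1 and 7.39 at cct-3.

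A gene for a noncoding RNA lay in 51 of the 385 gaps with a member, or 13.2% (10 to 17), and in 168 of the 1676 gaps without one, or 10% (8.63 to 11.6). Under 50% of the 32-base words occurred once in the genome at 5 members, or 1.22% (0.396 to 2.82), none of them among the 31 strongest, and at 0.744% of all autosomal regions.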
